A study of Mus musculus with 13 samples.

Results

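Distal regions of the murine hepatoma line Hepa 1-6 were examined that carried H3K27ac and H3K4me1 and were free of KAP1 and H3K9me3. A region of the H3K27ac list was a member when it was under 4000 bp wide, overlapped an H3K4me1 region by at least 1 bp, overlapped no KAP1 peak and no H3K9me3 region, and had its centre more than 3 kb from the start of any protein-coding transcript. By this rule 20627 of 57562 H3K27ac regions were members, 35.8% of that list. The members were thus chosen by the measured H3K27ac, H3K4me1, KAP1 and H3K9me3 lists, and what these lists show about them is given as description only. ChIP-seq was used, which pulls down chromatin with an antibody and locates the places where its DNA is enriched. KAP1 (the corepressor encoded by Trim28), H3K27ac, H3K4me1 and H3K9me3 came from Hepa 1-6 cells in standard culture by their source labels, although a treatment note given for every sample speaks of transduction. The polymerases PolII, which transcribes protein-coding genes, and PolIII came from cells fixed 5 days after they received a control short hairpin RNA (control) or one directed against KAP1 (Kap1 KD). Each of these 8 groups was 1 library of the same cell line, so no value has a replicate error, and the control vector is called an empty vector in the methods of the study. No KAP1 or histone profile of the Kap1 KD cells was analysed here, so in both conditions members are defined by the profiles labelled as standard culture, and the loss of KAP1 could not be checked from these lists. Sequencing depth is unknown, since the lists give no read counts.

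Enhancers are stretches of DNA away from gene starts where transcription factors bind and raise the activity of a gene. Bound factors keep a short stretch free of nucleosomes, and the nucleosomes to either side carry H3K4me1 and, where the enhancer is active, H3K27ac. In liver cells the factors known for such sites include FOXA proteins, HNF4A, HNF1, C/EBP proteins and NR5A2, and in growing or transformed cells AP-1, the dimer of Jun and Fos proteins, and TEAD, the DNA partner of YAP. KAP1 is known above all for the silencing of DNA bound by zinc finger proteins.

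The sequences that the results turn on are those between neighbouring members rather than those at their centres. Of all pairs of neighbouring members, 6809 lay 100 to 1000 bp apart, and in 6636 of them no other H3K27ac region lay between, which left gaps with a median width of 305 bp. These gaps were flanked by 11636 members, 56.4% of all. Shown are the 300 bp around the centre of 1 gap from each of 4 of the 5 runs with the most members. A run is a set of members at most 10 kb apart. Those taken were the gaps with the most kinds of motif in these 300 bp, a choice made after the gaps had been examined. They lie at chr15:61344738-61345037, 473 kb upstream of Myc, at chr6:121094073-121094372, 40.2 kb from the start of Pex26, at chr15:61950548-61950847, 130 kb downstream of the Myc start, and at chr2:83553604-83553903, 11.3 kb from the start of Itgav. For comparison, the central 300 bp of 3 members near liver genes are shown. They lie at chr5:90895456-90895755 in an intron of Alb, at chr7:35912368-35912667 downstream of Cebpa and at chr2:163321958-163322257 upstream of Hnf4a. The last of these has R3hdml as its nearest gene. The 2 members with the most kinds of motif follow, at chr15:40208758-40209057, 278 kb from the start of Zfpm2, and at chr16:57698302-57698601 in an intron, 56.4 kb from the start of Col8a1. All are the plus strand of mm9 (NCBIM37), 5′ to 3′, and capitals mark every match to 1 of 13 motifs on either strand.
Myc upstream gap: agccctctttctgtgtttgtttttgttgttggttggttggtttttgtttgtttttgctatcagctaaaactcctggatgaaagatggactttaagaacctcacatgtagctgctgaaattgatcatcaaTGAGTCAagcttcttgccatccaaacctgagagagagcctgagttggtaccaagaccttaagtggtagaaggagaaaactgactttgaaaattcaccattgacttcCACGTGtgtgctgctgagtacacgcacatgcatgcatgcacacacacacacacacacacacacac
Pex26 gap: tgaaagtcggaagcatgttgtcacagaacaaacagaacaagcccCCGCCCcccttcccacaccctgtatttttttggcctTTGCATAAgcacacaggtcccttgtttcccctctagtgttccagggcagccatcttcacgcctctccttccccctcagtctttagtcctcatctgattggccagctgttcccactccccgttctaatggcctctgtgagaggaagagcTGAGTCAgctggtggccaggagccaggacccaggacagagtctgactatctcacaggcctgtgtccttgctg
Myc downstream gap: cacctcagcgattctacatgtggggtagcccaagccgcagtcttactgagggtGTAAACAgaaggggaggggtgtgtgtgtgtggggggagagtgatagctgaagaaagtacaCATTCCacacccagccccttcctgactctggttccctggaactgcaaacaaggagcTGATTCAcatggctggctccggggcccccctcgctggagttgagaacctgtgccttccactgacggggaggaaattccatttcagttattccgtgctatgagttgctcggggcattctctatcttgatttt
Itgav gap: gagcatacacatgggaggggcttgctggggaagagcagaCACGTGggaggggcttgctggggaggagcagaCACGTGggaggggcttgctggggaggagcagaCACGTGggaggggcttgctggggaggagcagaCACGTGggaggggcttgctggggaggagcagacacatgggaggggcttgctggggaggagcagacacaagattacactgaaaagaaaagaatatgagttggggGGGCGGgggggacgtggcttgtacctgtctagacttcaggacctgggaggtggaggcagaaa
Alb member: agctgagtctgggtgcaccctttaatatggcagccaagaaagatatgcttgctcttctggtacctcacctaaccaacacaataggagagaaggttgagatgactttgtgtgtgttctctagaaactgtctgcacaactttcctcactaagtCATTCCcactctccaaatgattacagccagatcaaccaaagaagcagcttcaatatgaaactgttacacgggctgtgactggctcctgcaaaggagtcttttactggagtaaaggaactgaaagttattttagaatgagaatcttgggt
Cebpa member: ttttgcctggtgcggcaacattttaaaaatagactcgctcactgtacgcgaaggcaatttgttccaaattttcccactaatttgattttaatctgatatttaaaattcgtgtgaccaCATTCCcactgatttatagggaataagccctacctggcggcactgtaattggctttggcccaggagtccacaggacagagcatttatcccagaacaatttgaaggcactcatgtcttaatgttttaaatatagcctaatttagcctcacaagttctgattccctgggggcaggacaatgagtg
Hnf4a member: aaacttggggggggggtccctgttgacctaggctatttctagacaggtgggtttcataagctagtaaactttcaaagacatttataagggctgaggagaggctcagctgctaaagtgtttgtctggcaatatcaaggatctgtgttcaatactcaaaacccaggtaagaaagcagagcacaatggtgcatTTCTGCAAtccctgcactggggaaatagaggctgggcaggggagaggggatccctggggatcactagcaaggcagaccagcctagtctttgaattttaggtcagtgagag
Zfpm2 member: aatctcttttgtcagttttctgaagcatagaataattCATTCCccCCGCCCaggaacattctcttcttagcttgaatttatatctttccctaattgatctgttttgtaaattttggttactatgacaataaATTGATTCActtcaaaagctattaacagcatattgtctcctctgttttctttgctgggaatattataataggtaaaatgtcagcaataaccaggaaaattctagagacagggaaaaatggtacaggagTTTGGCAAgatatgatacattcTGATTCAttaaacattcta
Col8a1 member: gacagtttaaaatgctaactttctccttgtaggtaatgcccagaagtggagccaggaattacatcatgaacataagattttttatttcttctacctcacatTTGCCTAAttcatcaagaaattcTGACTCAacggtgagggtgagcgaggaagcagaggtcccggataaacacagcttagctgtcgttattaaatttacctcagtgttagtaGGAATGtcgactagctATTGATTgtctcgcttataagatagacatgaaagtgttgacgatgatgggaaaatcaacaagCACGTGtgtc

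The motifs searched were TGANTCA for AP-1, TTGCNNAA for C/EBP, TGTTTAC for FOXA, CAAAGTCCA for HNF4A, GTTAATNAT for HNF1, CAAGGTCA for NR5A2, ATTGATT for HNF6, CATTCC for TEAD, TGACGTCA for CREB, CCGGAAGT for ETS, GGGCGG for SP1, AGGGGGCGC for CTCF and CACGTG for the E-box that MYC and USF proteins bind. Both strands were read, and matches may overlap. The Pex26 gap, 196 bp wide, held AP-1 and C/EBP matches, and the SP1 match of its 300 bp window lay just outside the gap. The gap downstream of Myc held AP-1, FOXA and TEAD matches. The Itgav gap held no AP-1 match, and its 4 E-box matches fell in a tandem repeat. The Alb and Cebpa members held a TEAD match alone, the Hnf4a member a C/EBP match alone, and those nearest to Afp, Apoa1 and Foxa2 held none of the motifs at their centres. The Zfpm2 and Col8a1 members held 5 kinds each, AP-1, C/EBP, TEAD and HNF6 among them. A match is a description of the letters, and the binding of a factor was not measured.

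AP-1 matches were denser in the gaps than in the members. The gaps held 3447 AP-1 matches, 1.46 per kb, against 0.4125 per kb in the members on either side, a ratio of 3.54. On the same measure SP1, with 963 matches in the gaps, had a ratio of 3.955, CTCF, with 11, had 5.015, and the other 10 motifs had 0.655 to 2.42. At least 1 match was found in 2692 gaps (40.6%, 95% Wilson interval 39.4 to 41.8%), and 639 gaps (9.63%) held 2 or more, up to 5. The same letters read backwards (ACTNAGT), which have the same base composition, occurred at 0.364 per kb in the gaps and 0.3155 per kb in the members, a ratio of 1.15. The ratio of AP-1 exceeded 1 on 19 of the 20 chromosomes with 20 gaps or more. The median ratio over chromosomes was 3.75, the highest was 6.795 on chromosome 16, and chromosome X, at 0.899, was the exception.

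The AP-1 density differed with the width of the gap. It was 2.20 matches per kb in gaps of 200 to 300 bp, 1.71 in narrower gaps, 1.77 at 300 to 400 bp and 0.604 at 700 bp or more. The gaps were richer in G and C (46.8%) than the members beside them (42.25%). Within each quintile of the GC content of the gaps, the AP-1 density of the gaps was 3.485 to 3.98 times that of members of like GC content. H3K4me1 covered 2714 gaps whole (40.9%) and was absent from 1846 (27.8%). Gaps without it held 1.90 AP-1 matches per kb and gaps covered whole held 1.27. Where a member beside the gap overlapped control PolII, 22.2% of 279 gaps held an AP-1 match (17.7 to 27.5%), against 41.4% of the 6357 other gaps (40.2 to 42.6%). For Kap1 KD PolII the shares were 32.4% of 1037 gaps (29.6 to 35.3%) and 42.1% of 5599 (40.8 to 43.4%).

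Gaps between other kinds of region were treated in the same way, with a window of 300 bp at the centre of each gap. An AP-1 match was found in 2541 of 6636 windows between members (38.3%, 37.1 to 39.5%). KAP1-bound distal active regions, which meet every condition of the rule except that they overlap KAP1, gave the highest share, 491 of 825 (59.5%, 56.1 to 62.8%), and the odds for the members were 0.422 times theirs (0.364 to 0.489, Fisher's exact test, two-sided, adjusted exact p = 9.25e-31). Distal H3K27ac regions without H3K4me1 had a match in 32.0% of 3097 windows (odds ratio of the members 1.32, 1.205 to 1.44, adjusted exact p = 1.71e-09). Between distal H3K4me1 regions without H3K27ac the share was 17.7% of 3365 windows (odds ratio 2.88, 2.60 to 3.18, adjusted exact p = 1.10e-102). Between H3K27ac regions within 1 kb of gene starts and free of KAP1 it was 8.73% of 2073 windows (odds ratio 6.49, 5.525 to 7.61, adjusted exact p = 6.92e-166), and within quintiles of GC content this odds ratio fell to 3.81. These 4 tests were adjusted together, were chosen after the gaps had been examined, and compare positions in the lists, since regions are not replicates.

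**Figure D1:**
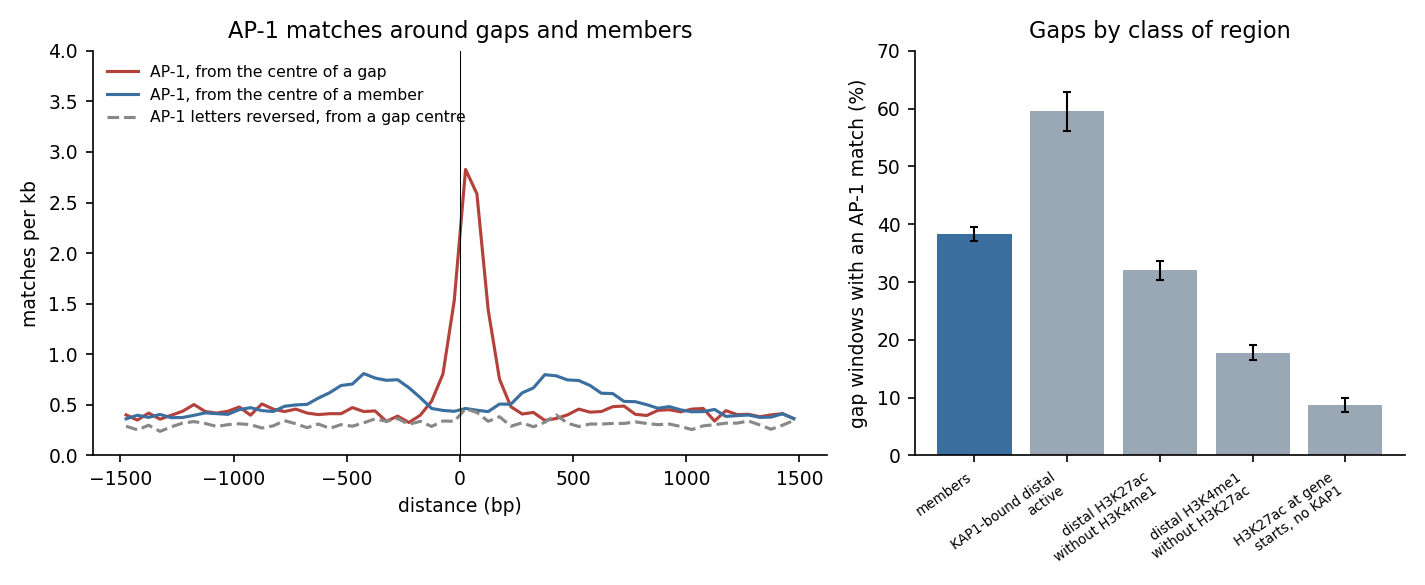
Left, AP-1 matches per kb (vertical axis) in 50 bp bins by distance in bp from the centres of 6636 gaps between neighbouring members (red) or of 20624 members (blue), with the reversed letters around gaps as a dashed line. Right, share of 300 bp gap windows with an AP-1 match for each class of region, with 95% Wilson intervals. The red line rises to 2.83 per kb just beyond the gap centre, the blue line is near 0.450 per kb at the member centre and rises to 0.810 at 425 bp below it and 0.787 at 425 bp above it, and KAP1-bound regions have the tallest bar.

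Around gap centres AP-1 reached 2.18 matches per kb in the central 100 bp, against 0.412 per kb in the flanks beyond 1 kb, a ratio of 5.29, whereas around member centres these densities were 0.450 and 0.398 per kb. Of the other motifs, CTCF had a ratio of 3.53 at gap centres, SP1 3.40, ETS 2.54, HNF1 2.50, CREB 2.45, HNF4A 2.04, FOXA 1.695, TEAD 1.60 and the E-box 1.17. C/EBP (1.05) and NR5A2 (0.939) were close to their flanks, and HNF6 was below them (0.645). The number of matches was low for some of these, with 136 HNF1, 56 HNF4A, 39 ETS, 35 CREB and 11 CTCF matches in all gaps against 1966 for TEAD. Per gap, 24.7% held TEAD, 15.01% C/EBP, 10.3% SP1 and 7.88% FOXA.

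At the centres of the members themselves the motifs were spread thinly. Of the 20627 central windows of 300 bp, 10641 (51.6%) held none of the 13 motifs, 7395 (35.9%) held 1 kind and 2 windows held 5 kinds. TEAD was found in 16.5% of windows, C/EBP in 13.96%, AP-1 in 12.2%, FOXA in 5.55% and HNF4A in 0.417%. Over all 57562 H3K27ac regions the shares were 15.6%, 13.8%, 10.5%, 5.05% and 0.424%. The median GC content of the windows was 41.7%, against 45.0% in KAP1-bound distal active regions and 44.7% at gene starts, and 14.95% of member windows held no CpG.

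The central windows were compared with those of 3 other classes by Fisher's exact test, adjusted over 39 tests. Against gene starts without KAP1, members held AP-1 more often (12.2% against 7.45%, odds ratio 1.72, 1.57 to 1.89, adjusted exact p = 4.15e-31), and HNF6, FOXA and TEAD were also higher, with odds ratios of 1.515, 1.29 and 1.11. SP1, the motif of GC-rich promoters, was lower (2.79% against 10.4%, odds ratio 0.248, 0.222 to 0.277, adjusted exact p = 6.18e-135, and 0.1405 in windows of 1 kb), as were CTCF, ETS, CREB and the E-box. Within quintiles of GC content AP-1, TEAD, SP1, ETS and CTCF kept the test. HNF6 (odds ratio 1.21), FOXA (1.15), CREB (0.561) and the E-box (0.853) kept their direction and did not pass. Against KAP1-bound distal active regions, FOXA was higher (5.55% against 4.28%, adjusted exact p = 0.01915) and SP1 lower (2.79% against 4.70%, adjusted exact p = 3.13e-06), and within quintiles of GC content neither passed, with odds ratios of 1.18 and 0.813. Against distal H3K4me1 regions without H3K27ac, AP-1 was lower at the centre (12.2% against 14.7%, odds ratio 0.805, 0.762 to 0.851, adjusted exact p = 1.93e-13), but with a window of 1 kb the odds ratio was 1.22 in the other direction.

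PolII was rare at the members. In the control 488 members (2.37%, 2.17 to 2.58%) overlapped a PolII peak, against 8.65% of all H3K27ac regions. Under Kap1 KD 1750 members did (8.48%, 8.11 to 8.87%), against 18.1% of all H3K27ac regions. Neither condition had PolII at 18816 members. Both shares are read against lists of unequal length, 5015 control and 12862 Kap1 KD peaks, and a difference between the conditions cannot be told apart from one between 2 libraries. With only the 5015 highest-scoring Kap1 KD peaks the share was 4.54%, against 11.9% of all H3K27ac regions.

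KAP1-bound distal active regions overlapped PolII more often than the members, with 364 of 2617 (13.9%) in the control and 896 (34.2%) under Kap1 KD. The odds for the members were 0.150 times theirs in the control (0.130 to 0.173, Fisher's exact test, two-sided, adjusted exact p = 4.09e-127) and 0.178 times under Kap1 KD (0.162 to 0.196, adjusted exact p = 8.16e-248). The KAP1-bound regions were wider, with a median of 1040 bp against 658 bp, and within quintiles of width the odds ratios were 0.1845 and 0.219. Distal H3K27ac regions without H3K4me1 had control PolII at 113 of 12523 (0.902%), so that the odds for the members were 2.66 times as high (2.17 to 3.27, adjusted exact p = 3.94e-24). Distal H3K4me1 regions without H3K27ac had it at 293 of 23027 (1.27%), an odds ratio of 1.88 for the members (1.625 to 2.18, adjusted exact p = 8.04e-18). Within quintiles of width these became 1.97 and 1.38, and 1.68 and 1.21 where PolII had to cover at least 0.5 of the region.

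**Figure D2:**
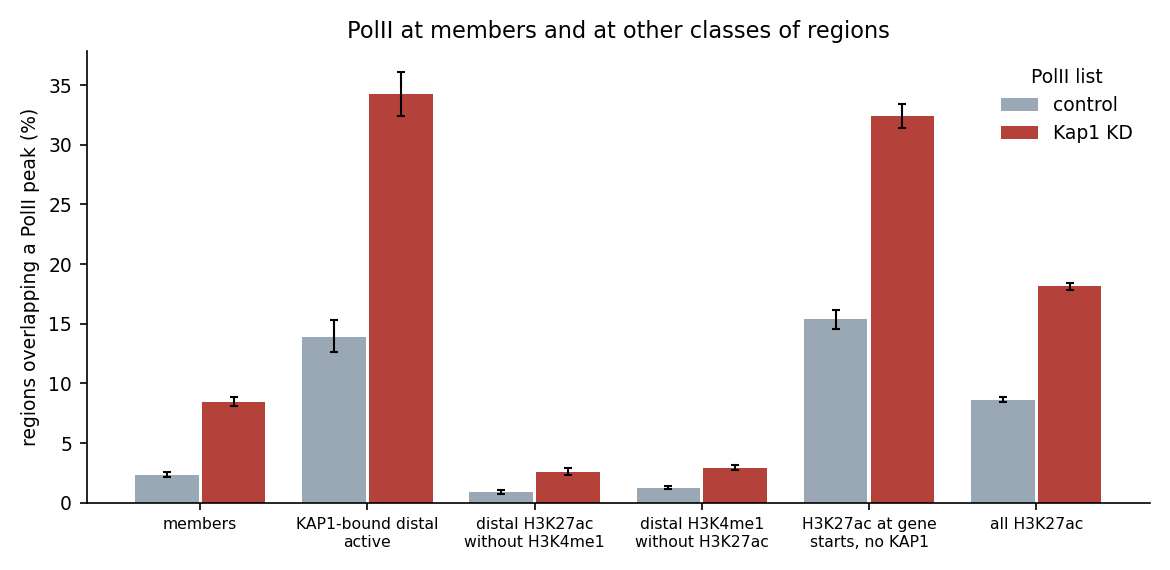
Share of regions that overlap a PolII peak (vertical axis, percent) for the members, 4 other classes and all H3K27ac regions, in the control (grey) and under Kap1 KD (red), with 95% Wilson intervals that cover counting error over regions only. Members, at 2.37% and 8.48%, stand below KAP1-bound regions and gene starts and above both distal classes that carry a single mark.

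Among the 1811 members with PolII in either condition, 1323 (73.1%, 71.0 to 75.05%) had it only under Kap1 KD, 427 had it in both and 61 only in the control. Over all H3K27ac regions 5927 of 10908 (54.3%) had it only under Kap1 KD. This Kap1 KD only share was 60.6% of 924 for KAP1-bound distal active regions (odds ratio of the members 1.76, 1.49 to 2.08, adjusted exact p = 7.80e-11) and 55.3% of 2704 for gene starts without KAP1 (odds ratio 2.20, 1.93 to 2.50, adjusted exact p = 8.44e-34). For distal H3K27ac without H3K4me1 it was 67.2% of 344 (odds ratio 1.33, 1.035 to 1.70, adjusted exact p = 0.0303), and within quintiles of width that difference did not pass (Mantel-Haenszel odds ratio 1.16). With PolII lists of equal length the share of the members was 54.2% and that of the KAP1-bound regions 37.3%. These 3 tests were chosen with the shares known.

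Where the members lay and how wide they were went with PolII. The narrowest quintile, up to 300 bp, overlapped control PolII in 1.285% and Kap1 KD PolII in 3.175%, and the widest quintile, from 1456 bp, in 4.97% and 18.3%. Members 3 to 10 kb from a start had control PolII in 4.17%, and those more than 300 kb away in 0.665%. A transcript start of a noncoding gene lay within 1 kb of 74 of the 1811 members with PolII (4.09%, 3.27 to 5.10%). The same held for 239 of the 18816 members without PolII (1.27%, odds ratio 3.31, 2.54 to 4.32, Fisher's exact test, p = 1.65e-15). This test was outside the planned comparisons and was not adjusted or stratified by width or start distance. Some neighbouring members were counted at the same noncoding gene. The highest-scoring control PolII peak at a member (chr19:5816969-5845930) spanned 28962 bp and reached the member at chr19:5817377-5817901. The nearest noncoding start to that member was that of Malat1, 14968 bp away. The transcript under this peak was not identified. The next peak, 32979 bp wide, overlapped 3 intronic members at once whose nearest start was that of Axin2. This gene is a target and inhibitor of the WNT pathway. One long PolII peak can thus count several members as PolII-positive.

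PolIII, which transcribes tRNA and other small RNA genes, was nearly absent from the members. It overlapped 37 members in the control (0.179%, 0.130 to 0.247%), against 0.455% of all H3K27ac regions, and 17 under Kap1 KD (0.0824%, 0.0515 to 0.132%), against 0.281%. Of the 37 members, 34 lay on chromosomes 1 to 4, where 2 of the 17 and 6550 of all members (31.8%) lay. No member had PolIII in both conditions. The same counts over all PolIII peaks and all H3K27ac regions are not given here. Neither count is therefore read as a trait of the members. The PolIII lists held 2772 and 431 peaks, and no test of the conditions was possible with 1 library each.

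The members covered 19.2 Mb, with widths of 13 to 3999 bp and a median of 658 bp, and their centres lay a median of 28.7 kb from the nearest protein-coding start. At the limits of the rule, 730 regions of 4000 bp or more and 9117 regions within 3 kb of a start met its other conditions. The widest member (chr6:34183531-34187529) had no PolII in either condition, nor had the member nearest to a start (chr2:168783953-168784225), 3002 bp from that of Zfp64. A region 3000 bp from the start of Tmem70 was left out. By their centres 10797 members (52.3%) were intergenic and 8707 (42.2%, 41.5 to 42.9%) lay in introns of protein-coding genes. A further 757 (3.67%) lay in noncoding genes and 366 (1.77%) in exons. Of the sequenced genome more than 3 kb from a protein-coding start, these classes in turn hold 61.65%, 33.9%, 2.46% and 1.99%.

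H3K4me1 covered a median of 90.5% of a member. It covered 7773 members whole (37.7%), passed beyond both ends of 8025, beyond a single end of 8079 and beyond neither end of 4523. A single H3K4me1 region was overlapped by 19273 members (93.4%), and 2435 H3K4me1 regions overlapped 2 members or more. The nearest KAP1 peak was a median of 36.7 kb away, and 4809 members (23.3%) had one within 10 kb.

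The members were unevenly spread over the chromosomes. Chromosome 15 held 2053 of them (9.95%), 19.8 per Mb, against 7.28 per Mb on the other chromosomes together. Chromosomes 9, 12, 14 and 16 held 2.65 per Mb, and chromosome X held 1.956 per Mb. The density of all H3K4me1 regions, which the rule used, was 90.7 per Mb on chromosome 15 and 7.64 to 10.4 per Mb on those 4, and the H3K27ac regions ran in the same direction, at 38.5 and 11.5 to 14.99 per Mb. On chromosome X the H3K4me1 regions stood at 15.8 and the H3K27ac regions at 12.02 per Mb. Of the distal H3K27ac regions under 4000 bp without KAP1 or H3K9me3, 81.7% overlapped H3K4me1 on chromosome 15 and 23.6% on chromosome 9. The number of copies of each chromosome in these cells was not measured, and its part in these densities was not tested.

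**Figure D3:**
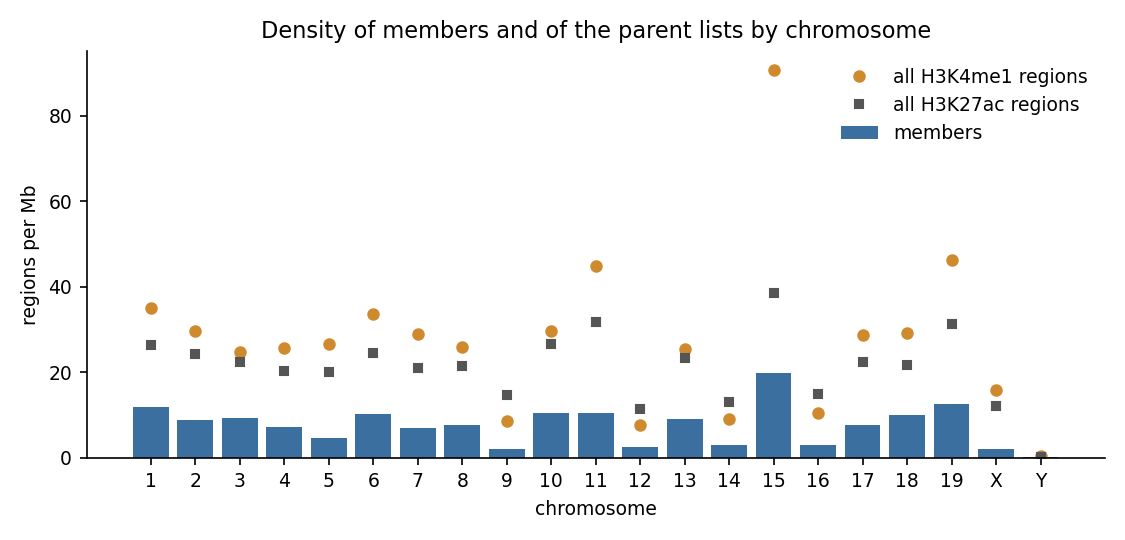
Members (bars), all H3K4me1 regions (orange circles) and all H3K27ac regions (grey squares) per Mb (vertical axis) on each chromosome (horizontal axis). Chromosome 15 stands highest in all 3, at 19.8 members per Mb, and chromosomes 9, 12, 14, 16 and X stand low, as does Y, with 2 members.

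Most members had close neighbours. The median gap to the next member was 11.0 kb, 33.1% of gaps were at most 1 kb, and 21.2% were over 200 and up to 500 bp. Joined at gaps of up to 10 kb, 15218 members (73.8%) fell into 5133 runs of at least 2. There were 48 runs of 10 members or more, of which 9 were on chromosome 15. The run with the most members held 47 over 158 kb (chr15:61321620-61479679), in the stretch upstream of Myc that has no other protein-coding gene between it and Myc, and 1 of its members overlapped PolII in the control. A run of 19 lay downstream of Myc (chr15:61935435-61979300), with control PolII at 3. The others of the 5 lay beside Ralgps2 (21 members, none with PolII), across Mical3 and Pex26 (20 members, 4 with control PolII) and beside Itgav (19 members, none with control PolII), the gene of an integrin subunit, and a run beside Pwwp2b also held 19.

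Myc, the gene of a transcription factor that drives growth, was the nearest protein-coding gene to 147 members, of which 68 lay upstream and 79 downstream, with centres from -515.5 kb to 855 kb relative to its annotated 5′ end. They covered 153.9 kb in all. Of the 147, 11 overlapped PolII in the control and 11 under Kap1 KD. The Myc promoter (250 bp to each side of the 5′ end) carried H3K27ac and had no PolII peak in either list. The closest protein-coding genes upstream, A1bg, itself nearest to 38 members, and Fam84b, start over 1 Mb away, so that assignment by distance gives Myc a long stretch of the chromosome.

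**Figure D4:**
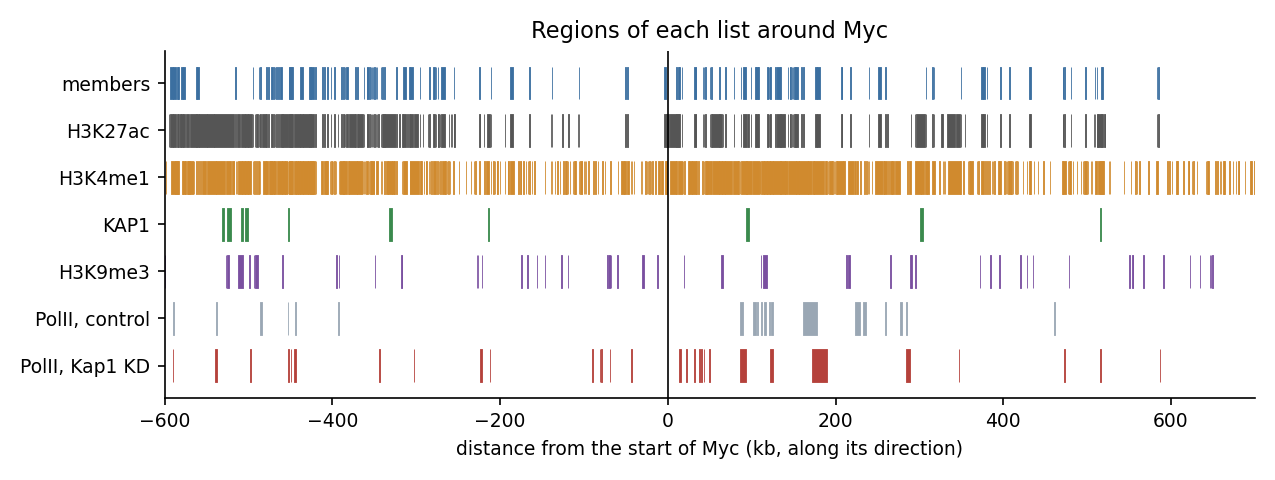
Regions of each list by distance from the annotated 5′ end of Myc (horizontal axis, kb), with 1 row for the members and 1 for each list and each block drawn to scale. The 145 members drawn are densest from 500 to 300 kb upstream and from 100 to 200 kb downstream, with 51 and 24 members, and KAP1 has 10 peaks in the same window.

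A member was nearest to 5633 of 22367 protein-coding genes (25.2%), with a median of 2 members for each of these. After Myc came Oxr1 (57 members, 41 of them inside the gene), Gm9747 (46), Zfp462 (42), A1bg (38), and Klf6, Tcf4, Trib1 and Trps1 (36 each), then Has2 (35), Myo10 (34) and Gdnf (33). Of these 12 genes 8 are on chromosome 15. Klf6 and Tcf4 encode transcription factors, Has2 a hyaluronan synthase and Gdnf a growth factor for neurons. PolII was over the promoters of Oxr1, Zfp462, Klf6 and Tcf4 in both conditions, and over that of A1bg under Kap1 KD only. Trib1, a pseudokinase that directs C/EBP alpha to degradation, had Kap1 KD PolII at 17 of its 36 members and control PolII at 5, with no PolII peak over its promoter. Trps1 had no PolII at any of its 36 members.

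Genes with a member nearest had PolII over the promoter more often. In the control 1118 of the 5633 did (19.8%, 18.8 to 20.9%), against 13.1% of all genes and 10.9% (10.4 to 11.4%) of the 16734 without a member, an odds ratio of 2.025 (1.87 to 2.20, Fisher's exact test, two-sided, p = 1.61e-61). The share was 17.7% with 1 member, 18.99% with 2 to 4, 23.0% with 5 to 9 and 27.8% with 10 or more. KAP1 over the promoter moved with the number of members too, from 13.7% of genes with none to 27.6% with 10 or more. H3K27ac over the promoter did so as well, from 17.0% to 34.2%, and no odds ratio stratified by it was computed. Stratified by KAP1 over the promoter, the odds ratio was 1.72. Under Kap1 KD the shares were 20.2% without a member and 42.5% with 10 or more.

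**Figure D5:**
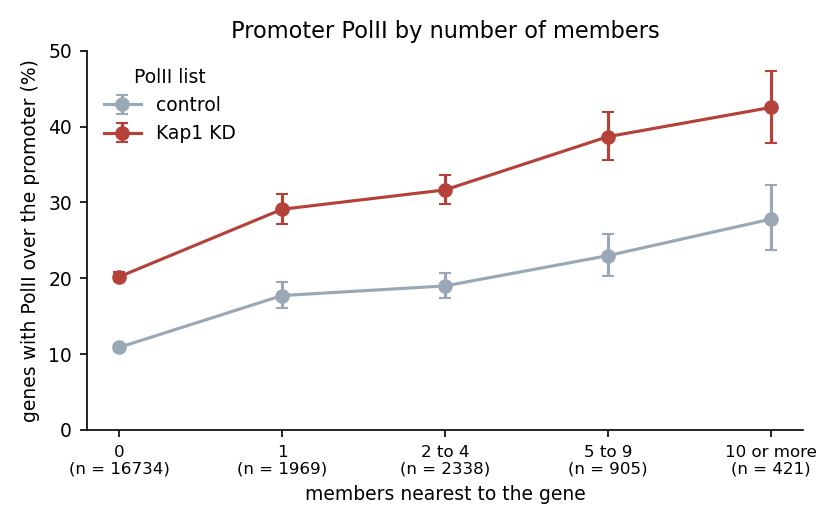
Share of genes with a PolII peak within 250 bp of the 5′ end (vertical axis, percent) by the number of members nearest to the gene (horizontal axis), in the control (grey) and under Kap1 KD (red), with 95% Wilson intervals over genes. The control share goes from 10.9% with no member to 27.8% with 10 or more, and the Kap1 KD share from 20.2% to 42.5%.

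Genes of the liver were examined by list, and the members near them are given as counts beside the 25.2% of all genes with a member. Of 20 liver transcription factors 11 had a member (75 in all, median 1.5 per gene). Foxa2, which opens liver chromatin for other factors, had 17 members and PolII over its promoter in both conditions. Nr5a2, a nuclear receptor of bile acid synthesis, had 15 and Gata6 had 12, without promoter PolII. The member nearest to Hnf4a (chr2:163321837-163322380) lay 10.4 kb upstream, in an intron, where R3hdml is the nearest gene. Cebpa, a factor of mature hepatocytes, was nearest to 5 members, of which the one closest to its start lay 8.21 kb downstream (chr7:35912368-35912668), and its promoter had PolII in both conditions.

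Of 20 plasma protein genes 6 had a member, and the median was 0 for these as for all genes. Apoh had 7 and Ambp had 2. Alb, which encodes serum albumin, had one of 1337 bp in an intron, 5.69 kb downstream of its start (chr5:90894938-90896274), and Afp, the fetal counterpart of albumin and a marker of hepatoma, one of 2111 bp 5.39 kb upstream (chr5:90913299-90915409). Neither had PolII in either condition. Apoa1 was reached by a member 40.7 kb upstream within Sik3 (chr9:45995732-45996280). Of 16 genes of liver metabolism 4 had a member, among them Scd1 (4), which makes unsaturated fatty acids. Of 7 oncofetal genes matched 5 had one, with Igf2bp3 at 4 and Igf2bp1 at 3.

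A list of 12 genes joined those of AP-1 subunits, such as Jun and Fos, with genes known as targets of AP-1 or YAP. Of these 12 genes 9 had a member, 176 in all, of which Myc supplied 147. PolII was over the promoter of 7 of the 12 in each condition, and not over that of Myc. Of all 22367 genes 2941 (13.1%) had it over the promoter in the control and 5222 (23.35%) under Kap1 KD. Ctgf, a target of YAP and TEAD, had 12, Atf3 had 5 and Cyr61 had 3, all with PolII over the promoter in both conditions. The lists of other cell types were used to check the label of the cells. H3K27ac lay over the promoter of 4464 of 22367 genes (19.96%). It lay over that of 6 of 20 liver transcription factors and 7 of 20 plasma protein genes, Alb and Afp included, over that of 4 of 16 genes of liver metabolism and 2 of 7 oncofetal genes, and over none of the 8 neuron, 8 muscle, 7 blood and 6 pluripotency genes. Members were nevertheless nearest to 2 genes of each of those 4 lists, for example Syt1 (7) and Mef2c (5). Of 8 fibroblast genes 7 had a member and 3, among them Dcn and Col1a1, had H3K27ac over the promoter, a share above that of each liver list. The part of fibroblast-like transcription in these results was not tested.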

How the data were processed

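Peak lists of 8 ChIP-seq libraries from Hepa 1-6 cells were used, 1 for each antibody and condition. The 5 inputs were not analysed here. Reads were mapped with Bowtie to mm9 per the submitters' notes. The authors called KAP1 and PolII with MACS against total input and the histone marks with ChIP-Part. The caller of PolIII is not given in the sources used here. The authors' lists hold positions and, for KAP1, PolII and PolIII, a score without a stated unit, used here only to rank or select peaks. PolII and PolIII peak numbers have gaps (22.6 to 55.0% missing), and the reason is not given in the sources used here.

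Overlap was 1 bp or more. Positions count from 1. GENCODE M1 (69963 transcript starts of 22367 protein-coding genes) and the NCBIM37 sequence were used. Protein-coding and noncoding starts were told apart by the type of the gene, not by that of the transcript. A gene's members are those whose nearest protein-coding start is its own. Shares carry 95% Wilson intervals, which cover counting error only. Odds ratios carry 95% Woolf intervals, with two-sided Fisher tests, the Benjamini-Hochberg adjustment, and Mantel-Haenszel odds ratios within quintiles (Python 3.11.15, scipy 1.17.1, statsmodels 0.14.6). Regions and genes are not replicates, so each p-value concerns positions in these lists, not conditions. Named genes were the 12 with most members and up to 4 per list, and some of the genes and sequences so chosen are not reported here. Named sites were the 5 largest runs, the members nearest to 6 liver genes and those under the highest-scoring PolII peaks. Alternatives varied overlap, windows, strata, start distance, chromosomes and list length. The members and gene lists were chosen with earlier results of these data known. The code was tested on simulated data.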

Additional observations from a re-analysis of the deposited data

Results flagged for a closer look

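The share of PolII-positive regions with PolII only under Kap1 KD was higher in the members than in each of the 3 other classes tested, before allowance for width. The odds ratio of the members was 1.76 against KAP1-bound distal active regions, 1.33 against distal H3K27ac regions without H3K4me1 and 2.20 against H3K27ac regions at gene starts without KAP1. The difference itself was tested by Fisher's exact test over regions, so it compares classes within 1 pair of libraries. With Kap1 KD and control lists of equal length the odds ratios were 1.98, 1.45 and 1.99. Within width quintiles they were 1.80, 1.16 and 2.245, and the difference from distal H3K27ac regions without H3K4me1 did not pass there.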

How the results depend on the processing

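The 4 PolII comparisons and the promoter comparison kept their direction and passed the test under every alternative run. With each chromosome left out in turn, the PolII odds ratios were 0.143 to 0.159 and 0.1685 to 0.185 against KAP1-bound regions (control and Kap1 KD), 2.515 to 2.84 against distal H3K27ac without H3K4me1 and 1.83 to 1.94 against distal H3K4me1 without H3K27ac. Where PolII had to cover at least 0.5 of the region, the comparisons with those single-mark classes fell to 1.68 (adjusted exact p = 3.69e-05) and 1.21 (adjusted exact p = 0.0461). The Kap1 KD only share against distal H3K27ac without H3K4me1 fell to an odds ratio of 1.16 within width quintiles, which did not pass. The motif comparisons at region centres depended on the settings. Against KAP1-bound regions 1 motif was higher and 1 lower, with 0 higher in 200 bp windows, 2 higher and 5 lower in 1 kb windows, and 0 and 0 within GC quintiles. Against distal H3K4me1 without H3K27ac 1 was higher and 5 lower, with 3 lower in 200 bp windows, 5 higher and 1 lower in 1 kb windows, 0 and 1 within GC quintiles, and 3 lower without chromosome 15. There AP-1 reversed in 1 kb windows, to an odds ratio of 1.22 (1.18 to 1.27), and TEAD, at 1.02 (0.987 to 1.06), no longer passed. In 1 kb windows CTCF moved to 0.594 there, and against gene starts ETS moved to 0.188 and SP1 to 0.1405. Against gene starts 4 were higher and 5 lower, and 2 and 3 within GC quintiles. The causes were not tested. The AP-1 density in gaps over that in the members beside them was 4.555 in gaps of 200 to 500 bp, 4.71 in gaps without H3K4me1 and 3.73 without chromosome 15, and the 4 tests between classes of gaps passed in the same direction under the 4 alternatives added after seeing the data, with the odds ratio against gene starts at 3.81 within GC quintiles. The share of members in runs was 67.7% at 5 kb and 80.4% at 20 kb. The number of members lay between 15899 and 24845 with other start distances, 17137 with H3K4me1 over at least 0.5 of the region and 19487 without KAP1 or H3K9me3 within 1 kb. The alternative that leaves out repeats was not run, since the genome file does not mark them. No paired analysis was possible because each group holds 1 library. Depth is unknown, so a region without a PolII peak was not shown to lack PolII.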

Other observations

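AP-1 matches within 200 bp of a gap centre lay off that centre, towards higher coordinates. Of 3604 such matches between members, 2503 (69.5%) were on the higher side, with a median offset of 39 bp, and the median was above 0 on 18 of the 19 chromosomes with 20 matches or more. It was also found in the gaps of KAP1-bound distal active regions (median 44 bp) and of distal H3K27ac regions without H3K4me1 (median 38 bp), with medians of 25.5 bp in those of H3K27ac regions at gene starts without KAP1 and 20 bp in those of distal H3K4me1 regions without H3K27ac. The difference between the classes was not tested.

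Members were also split by the motifs in their central 300 bp, with 26 tests adjusted together. Of members with an SP1 match 14.9% overlapped Kap1 KD PolII, against 8.30% of those without (odds ratio 1.94, 1.53 to 2.45, Fisher's exact test, adjusted exact p = 7.19e-06), and the control shares were 4.17% and 2.31% (adjusted exact p = 0.049). An E-box match went with Kap1 KD PolII (11.8% against 8.37%, adjusted exact p = 0.0386) and did not pass in the control (2.69% against 2.355%, adjusted exact p = 0.643), and a C/EBP match with less control PolII (1.67% against 2.48%, adjusted exact p = 0.049) but did not pass under Kap1 KD (7.29% against 8.68%, adjusted exact p = 0.0668). These tests were added after seeing the data and were not stratified by width or GC content.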
